A study of Mus musculus with 18 samples.

Results

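The potassium channel genes described here were Kcnma1, Kcnj8, Kcnc1, Kcna3, Kcnn4, Kcnk5 and Kcnk6, 7 of the 19938 genes named on the array. Every probe set whose single gene symbol was 1 of these was used, which gave 8 of 35399 probe sets, since Kcnma1 carries 2. The genes had been chosen with results of these same arrays in view, from differences between genotypes and between cell subsets. The record of that choice does not say which difference stood behind each gene. The KO against WT values of Kcnc1, which had been seen before, are therefore a description and carry no test. The other values are reported with the test over the whole table, and the choice of the genes is part of how they should be read.

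The study set out to find genes regulated by Runx3, a transcription factor of the Runt family, in natural killer (NK) cells activated in the animal by interleukin-15. The 2 genotypes were Runx3 -/- mice (KO) and Runx3 +/+ mice (WT), of the ICR strain, aged 6 weeks and labelled as male or female. All animals, WT included, had received 2 injections of IL15/Ra complexes 2 days apart, so there was no uninjected group. NK cells of the spleen were enriched by negative selection, and the NKp46+ fraction was then divided by sorting: immature CD27+CD11b- cells (CD27), mature CD27+CD11b+ cells (DP, double positive) and mature CD27-CD11b+ cells (CD11b). Each subset and genotype had 3 arrays, 18 in all. The labels give the genotype as -/- and name no Cre driver, and they do not say whether animals were pooled. Nor do they tie a replicate number to an animal, so p-values cover only the variation among these arrays, part of which may be technical.

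Values are log2 expression of a probe set, so a difference of 1 is 2-fold. They ran from 3.91 to 14.96, with a median over probe sets of 6.33 for the mean level, and Pearson's r between arrays was 0.960 to 0.995. The number of arrays limits the precision. Levels of different probe sets cannot be set against each other on this scale, and the table gives no detection call, so a low level does not show that a gene was silent. Runx3 itself was lower in KO in each subset, at 10.73 to 11.14 in KO and 11.39 to 11.49 in WT CD27 cells, 10.75 to 10.90 and 11.40 to 11.59 in DP cells, and 11.10 to 11.46 and 11.62 to 11.85 in CD11b cells. The sources used here do not place its probe set inside or outside the deletion. The 8 NK cell markers, among them Ncr1, which encodes NKp46, averaged 12.78 to 13.20 on KO arrays and 12.91 to 13.29 on WT arrays. The 8 T cell genes averaged 8.03 to 8.52 on WT CD27 arrays and 7.63 to 7.79 on KO CD27 arrays. In CD11b cells they averaged 6.53 to 6.74 in WT and 6.70 to 7.12 in KO. Of these genes, Cd3e read 10.49, 11.09 and 8.14 in WT CD27 cells. Their part in differences that involve CD27 cells was not tested.

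The 3 arrays of KO replicate 3 stood apart from the rest. The mean of 6 proliferation genes was 10.76, 11.01 and 10.70 on its CD27, DP and CD11b arrays, 7.96 to 8.98 on the other KO arrays and 7.08 to 7.52 on WT arrays. Its CD11b array also carried markers of other cells. There the 8 neutrophil genes averaged 9.13, against at most 5.39 in WT CD11b cells, and the 7 genes of dendritic cells and MHC class II averaged 10.09, against at most 5.42 in WT. The 7 macrophage and monocyte genes found averaged 7.40 there, against at most 5.61 in WT. Other KO arrays carried less of this signal. The dendritic cell and MHC class II genes reached 6.55 in KO CD27 and 6.98 in KO DP cells, against at most 5.65 and 5.39 in WT. On the middle KO CD11b array they averaged 6.27. The CD11b array of KO replicate 1 read 7.96 for Lyz2 and 6.97 for Cd74, against at most 5.32 and 5.26 in WT. Leaving out KO replicate 3 thus does not remove all of it. Where a difference lost or gained a call, turned its sign or moved widely without KO replicate 3, the value without it is given below. That replicate was also the only KO replicate with high Xist, so leaving it out shifts the balance of Xist between the genotypes too. In sorted cells measured in bulk, fewer cells of a type and less RNA per cell cannot be told apart.

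Potassium channels let potassium leave a cell along its gradient and hold the membrane potential negative. In lymphocytes this keeps up the electrical force that draws calcium in through store-operated channels after a receptor is engaged, and it lets a swollen cell shed potassium and water. The voltage-gated Kv1.3 (Kcna3) and the calcium-activated KCa3.1 (Kcnn4) are the best known of these channels in T cells. Kcnc1 encodes Kv3.1, a voltage-gated channel that opens and closes fast and is known from fast-firing neurons and, in mice, from some T cells. Kcnma1 encodes the BK channel, which opens to both voltage and calcium. Kcnj8 encodes Kir6.1, an inward rectifier that forms ATP-sensitive channels with a sulfonylurea receptor. Kcnk5 (TASK-2) and Kcnk6 (TWIK-2) belong to the tandem-pore channels that leak potassium at rest.

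The start regions of 3 of the genes are shown, because Kcnc1 had the lower KO levels, Kcnk5 came next and Kcnn4 held the most copies of the core motif of Runx proteins. Windows of 250 bases before to 50 after the annotated start, from RefSeq with the build GRCm38.p6, were at hand for 6 of the 7 genes, and Kcnk6 had none. TGTGGT and its variant TGCGGT were searched on both strands, where they read ACCACA and ACCGCA on the printed strand, and no match shown overlaps another. Matches are in capitals. The windows of Kcnc1 (chr7:46396218-46396517, plus strand) and Kcnn4 (chr7:24370013-24370312, plus strand) are not at the outermost annotated start of the gene. That of Kcnk5 (chr14:20181733-20182032, minus strand) is.
Kcnc1: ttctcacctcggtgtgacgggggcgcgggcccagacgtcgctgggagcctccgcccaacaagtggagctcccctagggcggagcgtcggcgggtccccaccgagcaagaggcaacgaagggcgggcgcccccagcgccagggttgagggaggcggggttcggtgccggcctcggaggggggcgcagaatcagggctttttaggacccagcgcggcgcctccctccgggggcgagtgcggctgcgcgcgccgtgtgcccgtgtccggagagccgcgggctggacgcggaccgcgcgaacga
Kcnk5: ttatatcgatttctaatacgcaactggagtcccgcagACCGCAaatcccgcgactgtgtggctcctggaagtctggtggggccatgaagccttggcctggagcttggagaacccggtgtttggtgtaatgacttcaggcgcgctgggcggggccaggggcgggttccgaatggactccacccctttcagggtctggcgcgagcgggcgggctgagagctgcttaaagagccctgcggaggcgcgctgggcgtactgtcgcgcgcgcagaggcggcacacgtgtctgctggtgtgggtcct
Kcnn4: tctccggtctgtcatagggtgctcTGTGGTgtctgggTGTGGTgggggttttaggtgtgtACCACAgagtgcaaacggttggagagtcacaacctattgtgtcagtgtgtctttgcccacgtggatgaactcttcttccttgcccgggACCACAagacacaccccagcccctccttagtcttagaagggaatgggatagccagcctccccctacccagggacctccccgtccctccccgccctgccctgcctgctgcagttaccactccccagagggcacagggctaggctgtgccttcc

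The Kcnc1 window held neither motif, and nor did those of Kcna3, Kcnj8 and Kcnma1. The Kcnk5 window held 1 TGCGGT, 213 bases before the start. The Kcnn4 window held 4 copies of TGTGGT, with first bases at -226, -213, -190 and -102. Of 32851 mouse windows of the same length, 16.76% held TGTGGT, 6.45% held TGCGGT and 22.41% held either, while 15 windows (0.046%) held 4 or more copies of TGTGGT. A match is a run of letters and not a bound site, and an empty window says only that these letters are not in it.

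Kcnc1 was lower in KO cells of every subset. In CD27 cells it read 6.04, 5.55 and 5.95 in KO, against 7.70, 7.92 and 8.02 in WT. In DP cells it read 6.51, 6.06 and 6.00 in KO, against 7.96, 8.39 and 8.23 in WT. In CD11b cells it read 5.23, 5.28 and 5.16 in KO, against 6.69, 7.47 and 6.95 in WT. All 9 KO arrays lay below all 9 WT arrays, with the highest KO array in DP cells and the lowest WT array in CD11b cells.

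The difference of KO minus WT was -2.03 in CD27 cells, -2.01 in DP cells and -1.81 in CD11b cells, each with a standard error of 0.19. These are 4.10-, 4.02- and 3.51-fold lower levels in KO. No test is given for these differences. In KO CD11b cells Kcnc1 read 5.16 to 5.28, below the median level of 6.33. Whether the low end of the scale narrowed differences that involve those arrays was not tested. The other 7 probe sets did not pass the threshold (limma adjusted p under 0.05) for KO against WT in any subset. Of all probe sets, 0.907% passed in CD27, 0.395% in DP and 1.29% in CD11b cells. Since genotype differences on these arrays were used in choosing the genes, nothing is read from that count.

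Across the subsets Kcnc1 was highest in DP cells and lowest in CD11b cells, in both genotypes. The means in order were 8.19 ± 0.22 in WT DP, 7.88 ± 0.16 in WT CD27, 7.04 ± 0.39 in WT CD11b, 6.19 ± 0.28 in KO DP, 5.85 ± 0.26 in KO CD27 and 5.22 ± 0.06 in KO CD11b cells (SD, n = 3 each). The arrays of WT DP and WT CD27 cells overlapped, as did those of KO DP and KO CD27 cells, and the other neighbours in that order did not. The same order of subsets in both genotypes thus rests on overlapping arrays for its upper step.

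From immature to mature cells Kcnc1 fell in WT, where the CD27 arrays also read higher for T cell genes than the CD11b arrays. Subset differences on these arrays were also used in choosing the genes. The p-values below are therefore no independent support for this fall. In KO the difference of CD11b minus CD27 cells was -0.62 (95% interval -1.04 to -0.21, limma adjusted p = 0.135), where 2.07% of all probe sets passed. WT CD11b cells were 1.80-fold lower than WT CD27 cells (difference -0.84, 95% interval -1.26 to -0.43, limma adjusted p = 0.0198), where 5.00% of all probe sets passed. That call was lost without CD27 WT replicate 2 (adjusted p = 0.0688) or 3 (0.0836), without CD11b WT replicate 1 (0.1) or 3 (0.0713), and with the compared groups alone (0.0696). With the genotype and replicate number as a random block, which pairs the arrays of a sample, it passed in KO as well (adjusted p = 0.0461) and stayed past the threshold in WT (0.00454). The KO and WT differences were not shown to be unequal. KO minus WT of the CD11b against CD27 difference was 0.22 (-0.36 to 0.81, limma adjusted p = 0.999), in a test where 0.0367% of all probe sets and 0 of the 8 passed. Unadjusted, 1 of the 8 had a p under 0.05 there, and that was Kcna3.

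**Figure D1:**
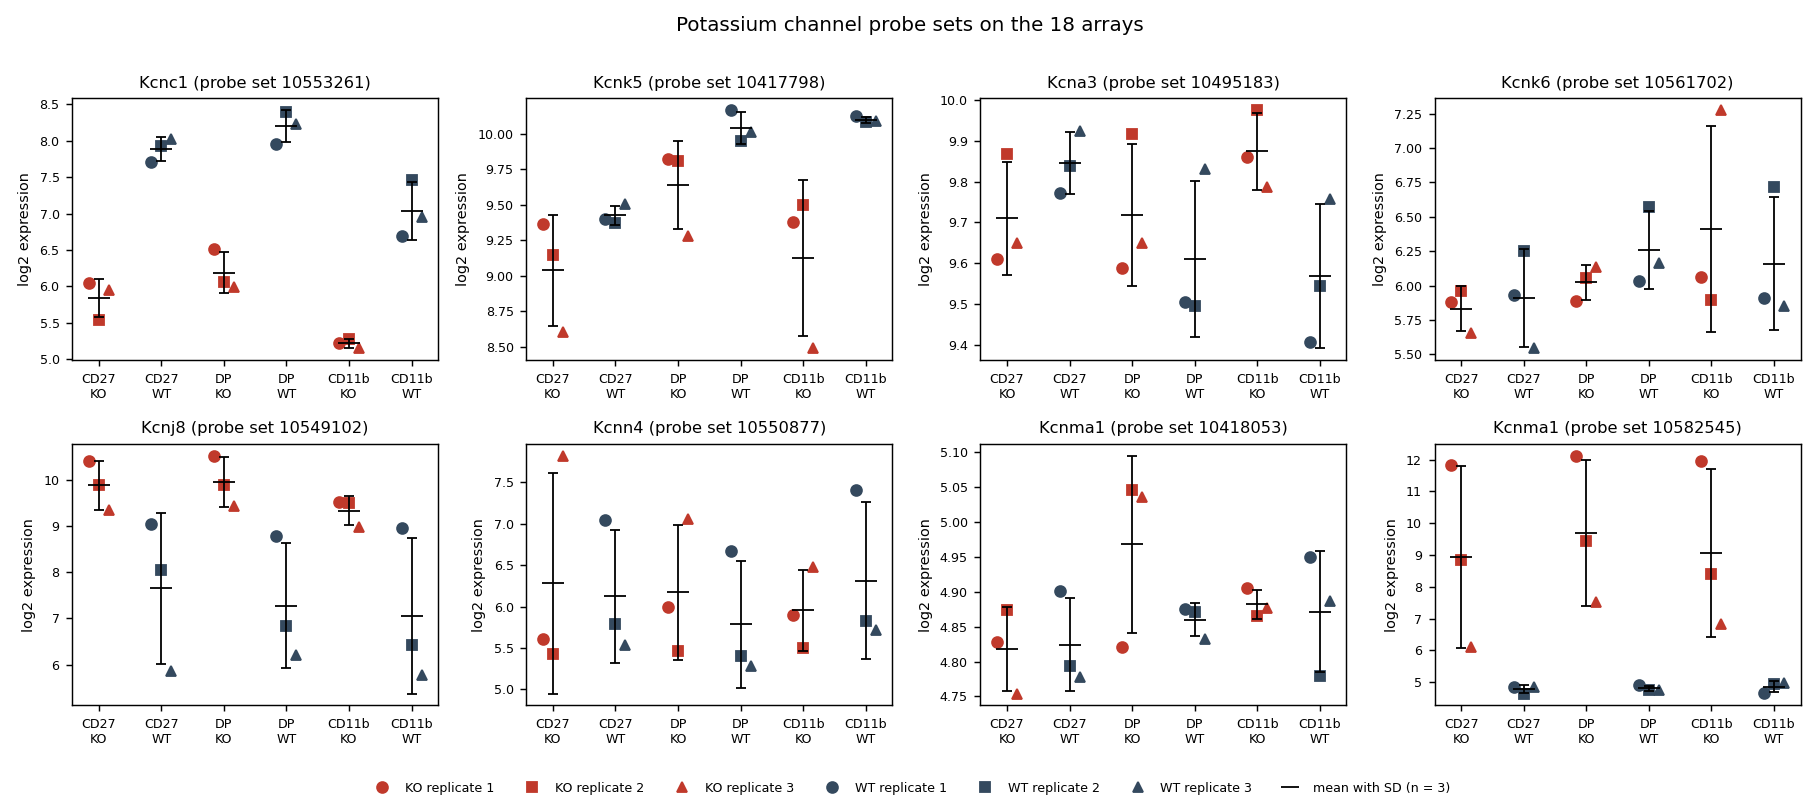
Log2 expression of each potassium channel probe set (vertical axes, each with its own scale) on the 18 arrays, by subset and genotype, with KO left of WT. Symbols mark replicate numbers and bars the mean with SD (n = 3). Kcnc1 is lower on all 9 KO arrays than on all 9 WT arrays, and the second Kcnma1 probe set spreads from 6.12 to 11.84 within KO CD27 cells.

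Kcnk5, which encodes the acid-sensitive and volume-sensitive leak channel TASK-2, read lower in KO CD11b cells, just short of the threshold. The CD11b arrays read 9.38, 9.50 and 8.49 in KO, against 10.12, 10.08 and 10.09 in WT. In CD27 cells it read 9.36, 9.15 and 8.61 in KO, against 9.40, 9.37 and 9.50 in WT, and in DP cells 9.82, 9.81 and 9.28 in KO, against 10.16, 9.94 and 10.01 in WT. Every KO array was lower than every WT array of its subset, by a narrow gap in CD27 cells, and KO replicate 3 was the lowest array each time.

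The KO minus WT difference of Kcnk5 was -0.97 in CD11b cells (95% interval -1.48 to -0.47, limma adjusted p = 0.0626), a 1.96-fold lower level. It was -0.39 in CD27 cells (-0.89 to 0.12, adjusted p = 0.598) and -0.40 in DP cells (-0.90 to 0.10, adjusted p = 0.625), which became -0.17 and -0.22 without KO replicate 3. The CD11b difference passed in 8 of 15 alternatives, with adjusted p between 0.00261 and 0.282 over all of them. Without KO replicate 3 in all subsets it was -0.66 and passed (adjusted p = 0.00261). That replicate holds the CD11b array with neutrophil and MHC class II genes, and their part in the Kcnk5 level of that array was not tested.

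The mean of Kcnk5 was lowest in CD27 cells in both genotypes, though in KO the arrays of the subsets overlapped. It was 9.04 ± 0.39 in CD27, 9.64 ± 0.31 in DP and 9.12 ± 0.55 in CD11b cells of KO mice, against 9.42 ± 0.07, 10.04 ± 0.11 and 10.10 ± 0.02 in those subsets of WT mice (SD, n = 3 each). The CD11b minus CD27 difference in KO was 0.08 (-0.42 to 0.59, limma adjusted p = 0.936), and 0.18 without KO replicate 3. In WT it was 0.67 (0.17 to 1.18, adjusted p = 0.133), with no overlap of arrays. The WT difference passed in 4 of 14 alternatives. These were the random block (adjusted p = 0.0338), array weights (0.0111), the compared groups alone (0.0051) and KO replicate 3 left out in all subsets (0.000262). The test of the difference between genotypes gave -0.59 (-1.30 to 0.12, adjusted p = 0.916).

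Kcna3, encoding Kv1.3, varied little. It lay between 9.41 and 9.97 on all 18 arrays. In CD11b cells it read 9.86, 9.97 and 9.79 in KO, against 9.41, 9.54 and 9.76 in WT, a difference of 0.31 (95% interval 0.05 to 0.56, limma adjusted p = 0.277) with no overlap. In CD27 and DP cells the differences were -0.13 (-0.39 to 0.12, adjusted p = 0.775) and 0.11 (-0.14 to 0.36, adjusted p = 0.815), and the arrays overlapped. The CD11b minus CD27 difference was 0.16 in KO (adjusted p = 0.62) and -0.28 in WT (adjusted p = 0.246), and the test between the genotypes gave 0.44 (0.08 to 0.80, adjusted p = 0.727).

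Kcnk6, encoding TWIK-2, which in mouse macrophages carries the potassium efflux that triggers the NLRP3 inflammasome, lay between 5.54 and 6.72 on 17 arrays. The other array was that of CD11b KO replicate 3, at 7.28, where macrophage, neutrophil and MHC class II genes were high as well. CD11b KO replicates 1 and 2 read 6.07 and 5.90, against 5.91, 6.72 and 5.85 in WT CD11b cells. The KO minus WT differences were -0.08, -0.23 and 0.25 in CD27, DP and CD11b cells (limma adjusted p = 0.975, 0.858 and 0.832). Without KO replicate 3 in all subsets they were 0.01, -0.29 and -0.18, so that the sign turned in CD27 and CD11b cells.

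**Figure D2:**
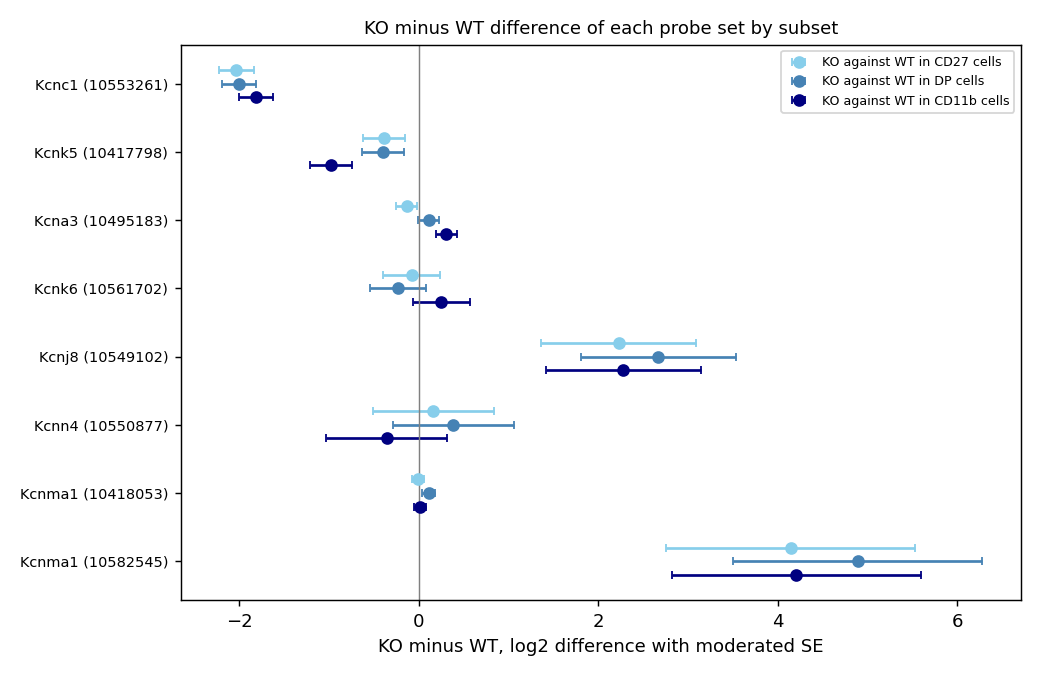
KO minus WT difference of each probe set (horizontal axis, log2, points with the moderated standard error) in CD27, DP and CD11b cells. Kcnc1 lies between -2.03 and -1.81 with a standard error of 0.19, while the largest differences, of the second Kcnma1 probe set and Kcnj8, carry standard errors of 1.39 and 0.87.

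The largest KO minus WT differences belonged to a probe set of Kcnma1 and to Kcnj8, and neither passed the threshold. The 3 KO samples differed widely from each other for the Kcnma1 probe set, as did the 3 WT samples for Kcnj8. The first Kcnma1 probe set (10418053), which lists 17 RefSeq transcripts among its 20 accessions, read 4.75 to 5.05 on all 18 arrays and differed between KO and WT by -0.01, 0.11 and 0.01 in CD27, DP and CD11b cells (limma adjusted p = 0.993, 0.651 and 0.981). The CD27 value was 0.03 without KO replicate 3. The second (10582545) lists 4 accessions, none of them RefSeq and 0 shared with the first. Its naming as Kcnma1 is therefore uncertain, and its values are not given as expression of the BK channel.

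That second probe set read 11.84, 8.83 and 6.12 in KO CD27 cells, against 4.86, 4.64 and 4.86 in WT. In DP cells it read 12.11, 9.44 and 7.52 in KO, against 4.90, 4.75 and 4.76 in WT, and in CD11b cells 11.96, 8.39 and 6.82 in KO, against 4.66, 4.94 and 4.96 in WT. Every KO array lay above every WT array, and the 3 KO samples were far apart, with sample means of 11.97, 8.89 and 6.82 over their 3 subsets. The KO minus WT differences were 4.14 (95% interval 1.17 to 7.12), 4.89 (1.92 to 7.86) and 4.20 (1.23 to 7.18) in CD27, DP and CD11b cells, with limma adjusted p = 0.225, 0.209 and 0.189. Without KO replicate 3 in all subsets they were 5.55, 5.97 and 5.32 and passed (adjusted p = 0.0279, 0.0288 and 0.0307). With only 1 array left out, of whichever replicate, none of them passed. The CD27 difference was then 2.69 without CD27 KO replicate 1, and the CD11b difference 2.75 without CD11b KO replicate 1.

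Kcnj8, encoding Kir6.1, was higher on every KO array than on the WT arrays of its subset. In CD27 cells it read 10.41, 9.87 and 9.34 in KO, against 9.04, 8.05 and 5.86 in WT. In DP cells it read 10.51, 9.89 and 9.43 in KO, against 8.79, 6.84 and 6.21 in WT, and in CD11b cells 9.51, 9.50 and 8.98 in KO, against 8.95, 6.42 and 5.79 in WT. Here the wide spread was among the WT samples, and the gap between the lowest KO and the highest WT array was small. In CD11b cells those arrays were KO replicate 3 at 8.98 and WT replicate 1 at 8.95.

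The KO minus WT difference of Kcnj8 was 2.23 in CD27 cells (95% interval 0.37 to 4.08, limma adjusted p = 0.317), 2.67 in DP cells (0.81 to 4.52, adjusted p = 0.296) and 2.28 in CD11b cells (0.42 to 4.13, adjusted p = 0.268). It passed in CD27 cells with array weights (adjusted p = 0.033), and in DP and CD11b cells with a fixed block by replicate number (0.0309 and 0.0365), which treats a number as shared by KO and WT. It passed in no subset with the random block by genotype and number (0.204, 0.168 and 0.167 in CD27, DP and CD11b cells). Without the CD27 array of WT replicate 3 alone, the CD27 difference was 1.33 (0.67). Abcc9, which encodes the sulfonylurea receptor SUR2 that pairs with Kir6.1 and is the next gene to Kcnj8 in the RefSeq annotation, read between 5.23 and 5.41 on all 18 arrays. Its KO minus WT differences were 0.02, 0.08 and -0.01 in CD27, DP and CD11b cells (limma adjusted p = 0.941, 0.661 and 0.982). Abcc9 read below the median level of 6.33 on every array, so its flat values do not show that the gene itself was unchanged. Whether the 2 neighbouring genes vary together was not tested.

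Kcnn4, encoding KCa3.1, showed no shared difference between genotypes. In CD27 cells it read 5.60, 5.43 and 7.82 in KO, against 7.04, 5.79 and 5.54 in WT. In DP cells it read 5.99, 5.46 and 7.06 in KO, against 6.67, 5.40 and 5.28 in WT, and in CD11b cells 5.89, 5.50 and 6.47 in KO, against 7.41, 5.82 and 5.71 in WT. In every subset the high arrays were those of KO replicate 3 and WT replicate 1. The KO minus WT differences were 0.16 (95% interval -1.29 to 1.61), 0.39 (-1.06 to 1.83) and -0.36 (-1.81 to 1.09) in CD27, DP and CD11b cells, with limma adjusted p = 0.976, 0.895 and 0.907. Without KO replicate 3 in all subsets they were -0.61, -0.06 and -0.62 (adjusted p = 0.719, 0.986 and 0.773), so that the sign turned in CD27 and DP cells.

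Of these 3 probe sets, nearly all of the spread within groups lay between samples, meaning the sets of 3 arrays that share a genotype and a replicate number. The share of the variance within groups that lay between samples was 98.4% for the second Kcnma1 probe set, 92.7% for Kcnj8 and 90.9% for Kcnn4, against a median of 44.6% over all probe sets. The SD between samples was 1.83, 1.11 and 0.856, which ranked 7, 107 and 253 of 35399, against a median of 0.0936. Kcnk5 (90.3%, SD 0.292) and Kcna3 (86.9%, SD 0.139) had a high share at a small spread. Kcnc1 had 64.5% and an SD of 0.202, beside KO minus WT differences of -2.03 to -1.81. Kcnk6 had 51.2% and the first Kcnma1 probe set 36.3%.

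The 3 probe sets did not order the samples alike. The sample means of Kcnj8 were 10.14, 9.76 and 9.25 in KO replicates 1, 2 and 3, and 8.93, 7.10 and 5.95 in WT replicates 1, 2 and 3. Those of Kcnn4 were 5.83, 5.46 and 7.12 in KO and 7.04, 5.67 and 5.51 in WT. Xist was low, at 5.13 to 5.69, in KO replicates 1 and 2 and WT replicate 1, and high, at 12.48 to 13.00, in KO replicate 3 and WT replicates 2 and 3. Without KO replicate 3, KO thus held only samples with low Xist, while WT held samples of both kinds. Within each genotype Kcnj8 was higher in the samples with low Xist, and the second Kcnma1 probe set was so within KO, while Kcnn4 was so within WT and ran the other way within KO. With Xist as a covariate the KO minus WT differences of Kcnj8 were 1.68, 2.17 and 1.82 in CD27, DP and CD11b cells (limma adjusted p = 0.185, 0.112 and 0.113), and those of the second Kcnma1 probe set were 3.50, 4.30 and 3.66 (0.188, 0.133 and 0.127). The proliferation genes were highest in KO replicate 3, where Kcnn4 was high too, but in WT replicate 1, where Kcnn4 was also high, they averaged 7.34, 7.21 and 7.52 in CD27, DP and CD11b cells, against 7.08 to 7.51 in WT replicates 2 and 3. The part of the proliferation genes in the Kcnn4 levels was not tested.

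**Figure D3:**
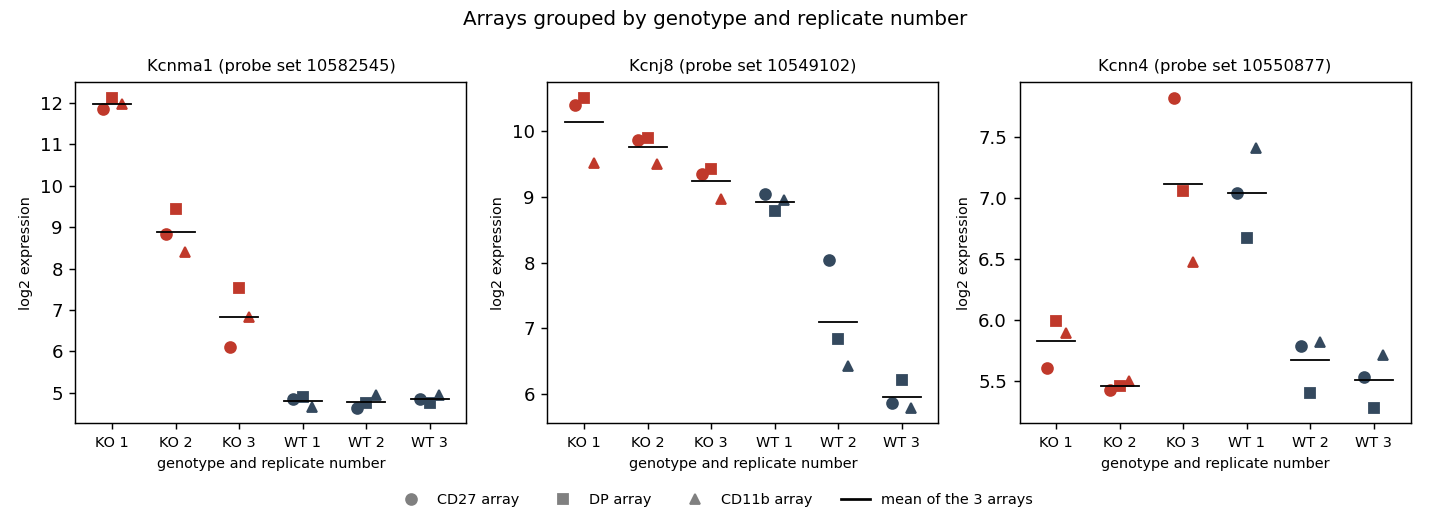
Log2 expression (vertical axes) of the second Kcnma1 probe set, Kcnj8 and Kcnn4, with arrays grouped by genotype and replicate number (KO left, WT right). Symbols mark the subsets and lines the mean of the 3 arrays. The subsets of a sample lie together, with Kcnma1 means of 11.97, 8.89 and 6.82 in the 3 KO samples and Kcnj8 means of 8.93, 7.10 and 5.95 in the 3 WT samples.

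The probe sets whose values ran most like those of each gene over the 18 arrays are given as a description, since all points share their arrays and genotype steps. For Kcnc1 they were Zc2hc1a (r = 0.949), Nedd4l, a ubiquitin ligase known for acting on ion channels (0.940), and Fgf13, an intracellular fibroblast growth factor homologue that binds sodium channels (0.938). For Kcnk5 they were Sh2d1b1, an adaptor of SLAM family receptors (0.916), Sytl2 (0.907) and Mef2d (0.902). For Kcna3 they were AI504432 (0.845), which is its next gene in the RefSeq annotation, Ago3 (0.814) and Orai1, the pore of the store-operated calcium channel (0.787). For Kcnj8 they were 2 probe sets of Sympk with the same value (0.949) and Glo1 (0.920), for Kcnn4 Eif1ax (0.907), Pno1 (0.892) and Pitrm1 (0.874), and for the second Kcnma1 probe set Mad2l2 (0.940), Cdk18 (0.897) and Gm15401 (0.895). For Kcnk6 they were Rbm47 (0.870), Htr7 (0.848) and Mgam (0.842), and for the first Kcnma1 probe set Camk1g (0.818), Aspdh (0.818) and Hpdl (0.807). Kcnj8 and the second Kcnma1 probe set correlated at 0.726 with each other.

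The other genes with a Kcn symbol, pore-forming and auxiliary subunits of potassium channels, were read on 83 probe sets of 81 genes. None of the 83 passed for KO against WT by limma in CD27, DP or CD11b cells, where 0.907%, 0.395% and 1.29% of all probe sets passed. An unadjusted p under 0.05 was reached by 6, 3 and 6. No share of all probe sets was taken beside any of the unadjusted counts in this report, so nothing is read from them. Their median differences were 0.01, -0.01 and -0.01, against -0.01, -0.02 and -0.01 over all probe sets. The other members of the Kcnc family, on 2 probe sets, differed by -0.08 to 0.07 across the 3 subsets. Nearest to the threshold were Kcnk10, which read higher in KO, and Kcnip3, which read lower.

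Kcnk10, which encodes the mechanically gated leak channel TREK-2, read 6.99, 6.98 and 6.85 in KO CD27 cells, against 6.16, 6.35 and 6.09 in WT. In DP cells it read 7.57, 7.30 and 6.97 in KO, against 6.16, 6.53 and 6.79 in WT. The KO arrays lay above the WT arrays, by 0.74 in CD27 cells (95% interval 0.39 to 1.10, limma adjusted p = 0.0519) and 0.79 in DP cells (0.43 to 1.14, adjusted p = 0.064). In CD11b cells the difference was 0.41 (adjusted p = 0.299). Without KO replicate 3 in all subsets it passed in CD27 cells (0.79, adjusted p = 0.0423) and in DP cells (0.94, adjusted p = 0.0289).

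Kcnip3, a calcium sensor that binds Kv4 channels and, as DREAM, also DNA, read lower in KO. Its CD11b arrays read 10.01, 10.17 and 9.54 in KO, against 11.07, 11.14 and 11.06 in WT. The difference was -1.18 in CD11b cells (95% interval -1.83 to -0.53, limma adjusted p = 0.0821), -0.90 in CD27 cells (adjusted p = 0.23, and -0.54 without KO replicate 3) and -0.82 in DP cells (adjusted p = 0.386), and within each of the 3 subsets no KO array reached the lowest WT array. The CD11b difference passed with a fixed block by replicate number (adjusted p = 0.0124) and with the random block (0.0478).

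Between subsets, 2 of the 3 genes for beta subunits of voltage-gated channels rose in WT. In KO, Kcnab3 read 6.30, 6.95 and 6.34 in CD11b cells, against 5.63, 6.04 and 5.71 in CD27 cells, and rose by 0.73 (95% interval 0.36 to 1.11, limma adjusted p = 0.0453). In WT it read 6.80, 6.66 and 7.13 in CD11b cells, against 5.89, 5.83 and 5.75 in CD27 cells, and rose by 1.04 (0.67 to 1.42, adjusted p = 0.0027). The call in KO was lost when any 1 of 5 of the 6 KO arrays was left out, CD27 KO replicate 2 being the exception, and without KO replicate 3 in all subsets (adjusted p = 0.133). Kcnab2, the beta subunit that associates with Kv1 channels, rose in WT by 0.53 (0.27 to 0.80, adjusted p = 0.0213), which was lost without 5 of the 6 arrays, CD27 WT replicate 1 being the exception. In all, 1 of the 83 probe sets (1.2%) rose in KO and 2 (2.41%) in WT, and none fell, against 2.07% in KO and 5.00% in WT of all probe sets that passed. With the random block Kcnq5, an M-current channel, passed in WT as well (0.86, adjusted p = 0.0291, against 0.121 without the block). For KO minus WT of the CD11b against CD27 difference none of the 83 passed by limma, and 3 had an unadjusted p under 0.05.

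**Figure D4:**
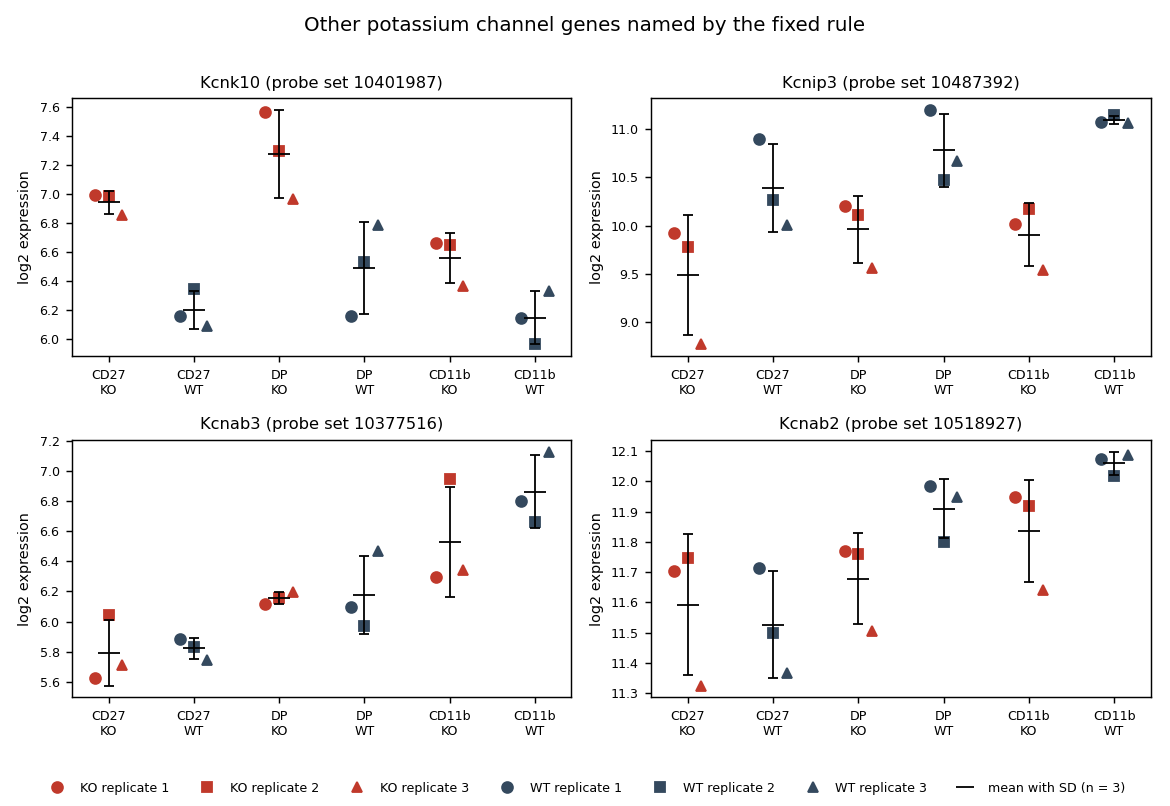
Log2 expression (vertical axes, each with its own scale) of Kcnk10, Kcnip3, Kcnab3 and Kcnab2 by subset and genotype, with KO left of WT. Symbols mark replicate numbers and bars the mean with SD (n = 3). Kcnk10 is higher and Kcnip3 lower on the KO arrays of each subset, and Kcnab3 reaches 6.66 to 7.13 in WT CD11b cells, against 5.75 to 5.89 in WT CD27 cells.

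Genes that work beside potassium channels, in calcium entry, the sodium-potassium pump and its cotransporters, chloride and volume channels, and binding partners of the 7 channels, were read on 48 probe sets of 44 genes out of 50 looked for. For KO against WT in CD27 and DP cells none passed by limma, with 7 and 8 at an unadjusted p under 0.05. In CD11b cells 11 had an unadjusted p under 0.05, and 1 of 48 passed (2.08%, against 1.29% of all probe sets). That was Atp1b1, a beta subunit of the sodium-potassium pump, which read 12.22, 12.31 and 12.23 in KO, against 12.58, 12.72 and 12.68 in WT. It fell by 0.41 (95% interval -0.57 to -0.25, limma adjusted p = 0.0125), and the call was lost without CD11b WT replicate 2 (0.0751) or 3 (0.0546) and without CD11b KO replicate 1 (0.0576) or 3 (0.0557). Atp1b1 was also lower in KO without overlap in the other subsets, where it did not pass. It read 11.91 to 12.08 in KO CD27 cells, against 12.17 to 12.40 in WT, and 12.10 to 12.29 in KO DP cells, against 12.43 to 12.52.

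In CD27 cells the nearest to the threshold were Mcu, the pore of the mitochondrial calcium uniporter, and Clcn3, a chloride-proton exchanger of endosomes. Mcu read 9.36, 9.43 and 9.04 in KO, against 8.97, 8.64 and 8.54 in WT, a difference of 0.55 (limma adjusted p = 0.0532). Clcn3 read 9.34, 9.30 and 8.97 in KO, against 9.93, 10.04 and 9.61 in WT, a difference of -0.66 (adjusted p = 0.0558). The arrays of the genotypes did not overlap for either gene, and both passed without KO replicate 3 in all subsets (adjusted p = 0.0191 and 0.0316). Neither shift was confined to CD27 cells, though neither passed elsewhere. Mcu read 9.18 to 9.41 in KO DP cells, against 8.86 to 9.10 in WT, and 9.13 to 9.35 in KO CD11b cells, against 8.86 to 9.06. Clcn3 read 8.77 to 9.27 in KO DP cells, against 9.66 to 9.71 in WT, and 8.68 to 9.09 in KO CD11b cells, against 9.36 to 9.49. The store-operated calcium channel genes Orai1, Orai2 and Orai3 and their sensors Stim1 and Stim2 had KO minus WT differences between -0.41 and 0.23 in the 3 subsets, none of which passed.

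Between subsets more of these genes changed. In KO, 2 of 48 probe sets were higher and 2 lower in CD11b than in CD27 cells, and in WT 6 were higher and 3 lower. That was 8.33% in KO and 18.8% in WT, against 2.07% in KO and 5.00% in WT of all probe sets, and the median differences were 0.05 in KO and 0.02 in WT, against 0.02 in each over all probe sets. Of the 11 probe sets of the pump and potassium cotransport, 1 rose and none fell in KO, with 4 at an unadjusted p under 0.05, and in WT 5 rose and 1 fell. For the difference between the genotypes none of the 11 passed by limma, with 2 at an unadjusted p under 0.05. Of the 48, the totals were 7 in KO and 15 in WT with the random block, and 3 to 5 in KO and 3 to 6 in WT with 1 array left out, against 4 in KO and 9 in WT. Over all probe sets the totals moved from 734 in KO and 1771 in WT to 1506 and 3012 with the random block. With 1 array left out they were 377 to 720 and 1052 to 1415. The largest falls in WT were those of P2rx7, the ATP-gated channel whose opening lets potassium out of the cell (-1.43, limma adjusted p = 0.00497), and Stk39, the kinase SPAK that regulates potassium-chloride cotransport (-1.06, adjusted p = 0.00288). P2rx7 read 5.28, 5.28 and 5.24 in WT CD11b cells, against 6.47, 6.42 and 7.19 in WT CD27 cells.

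Of the calls in both genotypes, Itpr3, a calcium release channel of the endoplasmic reticulum, was lower in CD11b cells by -0.84 in KO (limma adjusted p = 0.00343) and -0.74 in WT (adjusted p = 0.00401). The endosomal chloride transporter Clcn5 was higher by 0.75 in KO (adjusted p = 0.00243) and 0.55 in WT (adjusted p = 0.0104), and the potassium-chloride cotransporter Slc12a4 (KCC1) by 0.71 in KO (adjusted p = 0.0015) and 0.42 in WT (adjusted p = 0.0247). Stim2 fell in KO by 0.60 on the log2 scale (adjusted p = 0.0331), against -0.46 in WT (adjusted p = 0.0704). The pump subunit Atp1b3 rose in WT on both of its probe sets, by 0.41 and 0.35 (adjusted p = 0.0428 and 0.0333). The calls of Clcn5, Slc12a4 and Atp1b3 (the probe set at 0.41) in WT and of Stim2 in KO were each lost without 1 of 3 to 5 of the 6 arrays compared, at adjusted p up to 0.0566, 0.104, 0.189 and 0.111. No difference between the genotypes in these changes passed by limma, with 3 of 48 at an unadjusted p under 0.05.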

How the data were processed

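Expression was measured on 18 Affymetrix arrays of sorted mouse NK cells. The deposited values are log2 expression per probe set, made by the authors with RMA, per the submitters' processing notes, which also name Partek and give no versions or genome build. Their range fits a log2 scale, and no further normalization or filter was applied. Probe sets were named through the platform annotation: 21789 had 1 gene symbol, 1621 several and 11989 were not listed. The last 2 kinds were tested but not named.

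With limma 3.58.1 in R 4.3.3 a model with 1 mean per subset and genotype was fitted to all 35399 probe sets and 18 arrays (12 residual and 2.18 prior degrees of freedom), with two-sided moderated tests. P-values were adjusted by Benjamini-Hochberg across the whole table, and a result passed at an adjusted p under 0.05. With 3 arrays a side the smallest two-sided permutation p is 0.1. The procedure was tested on simulated data. The members and the lists of other genes were chosen with earlier results of these data known. From each wider list at most 6 genes that passed, those with the largest differences, were taken per comparison, and where none passed the 2 with the smallest p. Some taken by this rule did not pass by limma and are not described above. For KO against WT in CD11b cells this was Kcnj10 (-0.24, adjusted p = 0.163). For the difference between the genotypes in CD11b against CD27 cells these were Kcnj4 (0.20, 0.793), Kcns3 (0.25, 0.793), Lrrc8d (0.49, 0.795) and the second Atp1b3 probe set (-0.29, 0.797). Kcnq5, the Kcnc family, Orai1 to Orai3, Stim1 and the second probe set of Atp1b3 in WT were added after their values were seen. So were Stim2 and Abcc9 in comparisons where they did not pass, and the further subsets of Kcnk10, Kcnip3, Mcu, Clcn3 and Atp1b1. Likeness is Pearson's r with the other probe sets of 1 gene symbol.

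Arrays that share a replicate number deviated together, at r over 0.1, in 9 of 9 pairs within KO (0.213 to 0.642). Within WT 8 of 9 pairs did (-0.00943 to 0.456), and between KO and WT 1 of 9 (-0.0726 to 0.19). Arrays of unlike number were over 0.1 in 5 of 18 pairs in KO (up to 0.287) and 1 of 18 in WT. That was CD27 replicate 3 with DP replicate 2 (0.275), while CD27 and DP arrays of WT replicate 3 gave -0.00943. The number was therefore taken to pair arrays within a genotype, from the data and not from the labels, with least ground between WT CD27 and DP cells. Values with the genotype and number as a random block (correlation 0.206) stand beside the comparisons of subsets where they change a call. Alternatives were array weights, cyclic loess, a filter at the median mean level, a robust prior with an intensity trend (statmod 1.5.0), fixed and random blocks, Xist as a covariate, the compared groups alone, each array left out and KO replicate 3 left out. The alternatives for calcium, pump, chloride and partner genes were added after the data were seen.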

Additional observations from a re-analysis of the deposited data

How the results depend on the processing

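No difference of a named gene that passed changed its sign under any alternative run. Of the 8 potassium channel probe sets, 1 passed for KO against WT in each subset. It was Kcnc1, whose values had been seen before, so its place in these counts is no test. The count became 3 in CD27 cells with array weights, and 2 in DP cells with the fixed block of replicate number. Without KO replicate 3 in all subsets it was 2 in CD27 and in DP cells and 3 in CD11b cells. In CD11b cells it was 3 with the fixed block, 2 with the random block, cyclic loess, probe sets above the median mean, array weights and Xist as a covariate, and 0 with the compared groups alone. With 1 array left out it was 1 in CD27 and DP cells and 1 to 2 in CD11b cells. For CD11b against CD27 cells in KO it was 0, and 1 with array weights and the random block. In WT it was 1, 2 with array weights, the random block and without KO replicate 3, and 0 to 1 with 1 array left out. Array weights called 3974 of all probe sets in CD27 cells, against 321, with weights of 6.24 for KO replicate 1 and 0.372 for KO replicate 3. The other KO against WT counts over all 35399 probe sets moved as well. In CD27, DP and CD11b cells they were 321, 140 and 457. They were 526, 274 and 802 with the fixed block, and 409, 174 and 574 with the random block. Without KO replicate 3 they were 455, 197 and 480, with Xist 464, 285 and 972, and with the compared groups alone 14, 17 and 34. With 1 array left out they were 117 to 282, 46 to 199 and 182 to 1094. The causes of these changes were not tested.

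Of the 83 other potassium channel probe sets 0 passed for KO against WT. In CD27 cells 3 passed with array weights and 1 with cyclic loess, probe sets above the median mean, the random block, Xist or without KO replicate 3. In DP cells 1 passed with cyclic loess, probe sets above the median mean, array weights, Xist or without KO replicate 3, and 0 to 1 with 1 array left out. In CD11b cells 1 passed with array weights, either block or Xist. For CD11b against CD27 cells in KO 1 passed, and 0 among probe sets above the median mean, without KO replicate 3 and with the compared groups alone, and 0 to 1 with 1 array left out. In WT 2 passed, 1 among probe sets above the median mean and 1 to 2 with 1 array left out.

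Of the 48 calcium, pump, chloride and partner probe sets, KO against WT gave 0 in CD27 cells, 2 with either block or without KO replicate 3 and 0 to 1 with 1 array left out. It gave 1 in DP cells with the fixed block, and 3 in CD11b cells with the fixed block and 0 to 1 with 1 array left out, against 0 and 1. For CD11b against CD27 cells the count was 4 in KO, 8 with the fixed and 7 with the random block, and 3 to 5 with 1 array left out. In WT it was 9, 16 with the fixed and 15 with the random block or without KO replicate 3, and 3 to 6 with 1 array left out. Over all 35399 probe sets the counts of CD11b against CD27 cells also moved, from 734 in KO and 1771 in WT. They were 989 and 2291 with the fixed block, 1506 and 3012 with the random block, and 608 and 2628 without KO replicate 3. Array weights gave 2231 and 3725, and the compared groups alone 146 and 1883. With 1 array left out they were 377 to 720 in KO and 1052 to 1415 in WT. The fixed block treats a number as shared by KO and WT, which the arrays did not show. With 3 arrays a group, a difference that did not pass was not detectable here, which does not show that it is absent.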
